A study of Rattus norvegicus with 24 samples.

Results

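The 9 genes described here mark the layers and projection neurons of the cerebral cortex: Cux1, Cux2, Rorb, Tbr1, Fezf2, Bcl11b, Foxp2, Etv1 and Slc17a7. They were found by gene name in the deposited annotation of 42334 loci, of which 26641 carry a name. All 9 had 1 locus each. The annotation spelled 7 of them as written here, and 2, BCL11B and ETV1, were matched in capitals. The Foxp2 locus also carries the name of an overlapping Ensembl gene, so its fragments cannot be split between them.

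Messenger RNA was sequenced from adult male Sprague-Dawley rats 3 months after a lateral fluid-percussion injury, a model of traumatic brain injury (TBI) in which a pulse of fluid strikes the intact dura, or after a sham operation, in which no pulse was given. Each of the 12 rats, 6 with TBI and 6 sham-operated, gave 1 library of the perilesional cortex, the tissue beside the lesion, and 1 library of the thalamus of the same side. The 4 groups of 6 are called TBI cortex, sham cortex, TBI thalamus and sham thalamus. The paper states that the sequenced TBI rats were selected for chronic inflammation, seen around the lesion by magnetic resonance imaging. They therefore need not stand for all rats with TBI. Lesions vary between rats, and the dissected tissue holds all its cell types together.

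The neocortex is built of layers whose excitatory neurons send axons to different targets, and a small set of transcription factors sets up these identities during development and stays on in the adult to varying degrees. Cux1 and Cux2, homeodomain proteins, mark the upper layers that connect cortical areas, and the nuclear receptor Rorb marks layer IV, which receives input from the thalamus. Fezf2, Bcl11b (CTIP2) and Etv1 (ER81) are factors of layer V, whose neurons project to the brain stem, spinal cord and striatum. Tbr1 and Foxp2 are factors of layer VI, whose neurons project back to the thalamus. Slc17a7 encodes VGLUT1, the transporter that loads glutamate into the synaptic vesicles of most cortical excitatory neurons, whereas thalamic relay neurons rely mainly on VGLUT2, encoded by Slc17a6. Several of the 9 are not confined to cortex: Rorb and Foxp2 are also known from thalamic nuclei, Bcl11b and Foxp2 from striatal neurons, and the Cux1 gene also makes a Golgi protein in many cell types.

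The bases just before the start of the members that fell after TBI in either region are shown so that their sequence can be set beside their values. RefSeq (assembly GRCr8) gave such sequence for 7 of the 9 members, and the 250 bases before the start are printed 5′ to 3′ on the strand of the gene. Capitals mark matches, on either strand, to any of 8 short motifs named after the sequences.
Tbr1 (chr3:66759553-66759802, + strand, 44% G or C): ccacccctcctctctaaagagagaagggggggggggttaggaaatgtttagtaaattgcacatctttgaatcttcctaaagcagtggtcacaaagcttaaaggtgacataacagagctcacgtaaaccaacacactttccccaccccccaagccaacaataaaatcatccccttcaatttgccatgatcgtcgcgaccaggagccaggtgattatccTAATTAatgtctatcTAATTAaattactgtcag
Fezf2 (chr15:15203943-15204192, + strand, 62.8% G or C): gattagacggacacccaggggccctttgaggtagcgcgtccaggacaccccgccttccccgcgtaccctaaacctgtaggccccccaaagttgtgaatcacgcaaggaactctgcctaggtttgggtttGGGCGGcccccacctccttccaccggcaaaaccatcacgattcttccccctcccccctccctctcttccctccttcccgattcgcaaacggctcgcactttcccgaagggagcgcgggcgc
Etv1 (chr6:61317179-61317428, + strand, 52.4% G or C): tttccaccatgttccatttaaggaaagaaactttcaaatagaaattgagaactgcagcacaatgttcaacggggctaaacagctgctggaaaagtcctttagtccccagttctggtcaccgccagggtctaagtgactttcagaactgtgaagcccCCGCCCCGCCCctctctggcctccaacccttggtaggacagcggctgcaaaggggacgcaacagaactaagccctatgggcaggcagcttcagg
Cux2 (chr12:40179032-40179281, + strand, 72.4% G or C): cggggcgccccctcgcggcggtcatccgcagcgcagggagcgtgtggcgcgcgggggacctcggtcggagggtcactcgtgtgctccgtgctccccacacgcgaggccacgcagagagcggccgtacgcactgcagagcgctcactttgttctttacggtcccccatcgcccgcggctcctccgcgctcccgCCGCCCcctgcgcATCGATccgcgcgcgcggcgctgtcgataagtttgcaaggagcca
Rorb (chr1:225970974-225971223, - strand, 64% G or C): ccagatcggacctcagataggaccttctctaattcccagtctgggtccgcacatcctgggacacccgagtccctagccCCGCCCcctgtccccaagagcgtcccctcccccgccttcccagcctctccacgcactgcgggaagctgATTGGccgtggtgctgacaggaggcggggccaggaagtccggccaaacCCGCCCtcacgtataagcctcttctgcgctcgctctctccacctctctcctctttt
Slc17a7 (chr1:104785955-104786204, + strand, 61.2% G or C): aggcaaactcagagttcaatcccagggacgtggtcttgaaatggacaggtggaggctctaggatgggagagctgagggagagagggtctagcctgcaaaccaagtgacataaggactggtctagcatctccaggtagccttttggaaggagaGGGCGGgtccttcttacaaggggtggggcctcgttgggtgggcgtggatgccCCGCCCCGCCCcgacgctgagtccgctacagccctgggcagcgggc
The motifs were a homeodomain core (TAATTA), the CCAAT box, the GC box (GGGCGG), the TATA box (TATAAA), a Cux site (ATCGAT), a nuclear receptor half-site (AGGTCA), a T-box half-site (GGTGTGA) and an ETS core (CCGGAA), and none of them contains another. Tbr1 held TAATTA at positions -33 and -18, counted from the start, a motif found in 4.86% of the 33469 windows of this length. Cux2 held ATCGAT at position -45, which 0.75% of windows hold. GGGCGG stood before 6 of the 7 genes, Tbr1 being the other one, against 30.5% of all windows, and the matches at -94 and -89 before Etv1 and at -46 and -41 before Slc17a7 overlap. CCAAT stood only before Rorb among the 7, at -104, against 34% of windows. The other 4 motifs had no match before any of the 7 genes, with TATAAA in 12.9%, AGGTCA in 14.1%, GGTGTGA in 3.22% and CCGGAA in 12.6% of all windows. The median window is 51.2% G or C, and Cux1, whose sequence is not printed, has 78%. All 6 genes with GGGCGG lie above that median, and the rate among windows of like G or C content was not computed.

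Values are normalized counts (fragments per locus after scaling by the size factor of the library, as deposited), and the depth recovered from them was 30568927 to 54608922 fragments per library. The labelled regions could be told apart by their markers: 12 thalamic neuron genes summed to 7928 to 9508 in sham cortex and 121435 to 162943 in sham thalamus, and 10 genes of glutamatergic forebrain neurons to 248223 to 282575 and 44247 to 54839. Some libraries stood apart. Summed striatal neuron markers exceeded 1.5 times the median of the region in TBI cortex of rat 24 and in sham thalamus of rats 26 and 38. Summed choroid plexus markers exceeded 5 times that median in sham cortex of rats 26 and 34, TBI cortex of rat 45, sham thalamus of rats 34 and 50, and TBI thalamus of rat 45. Where leaving out these libraries changed a call of a member or of Slc17a6, the value without them is given beside the result or in the closing section.

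**Figure D1:**
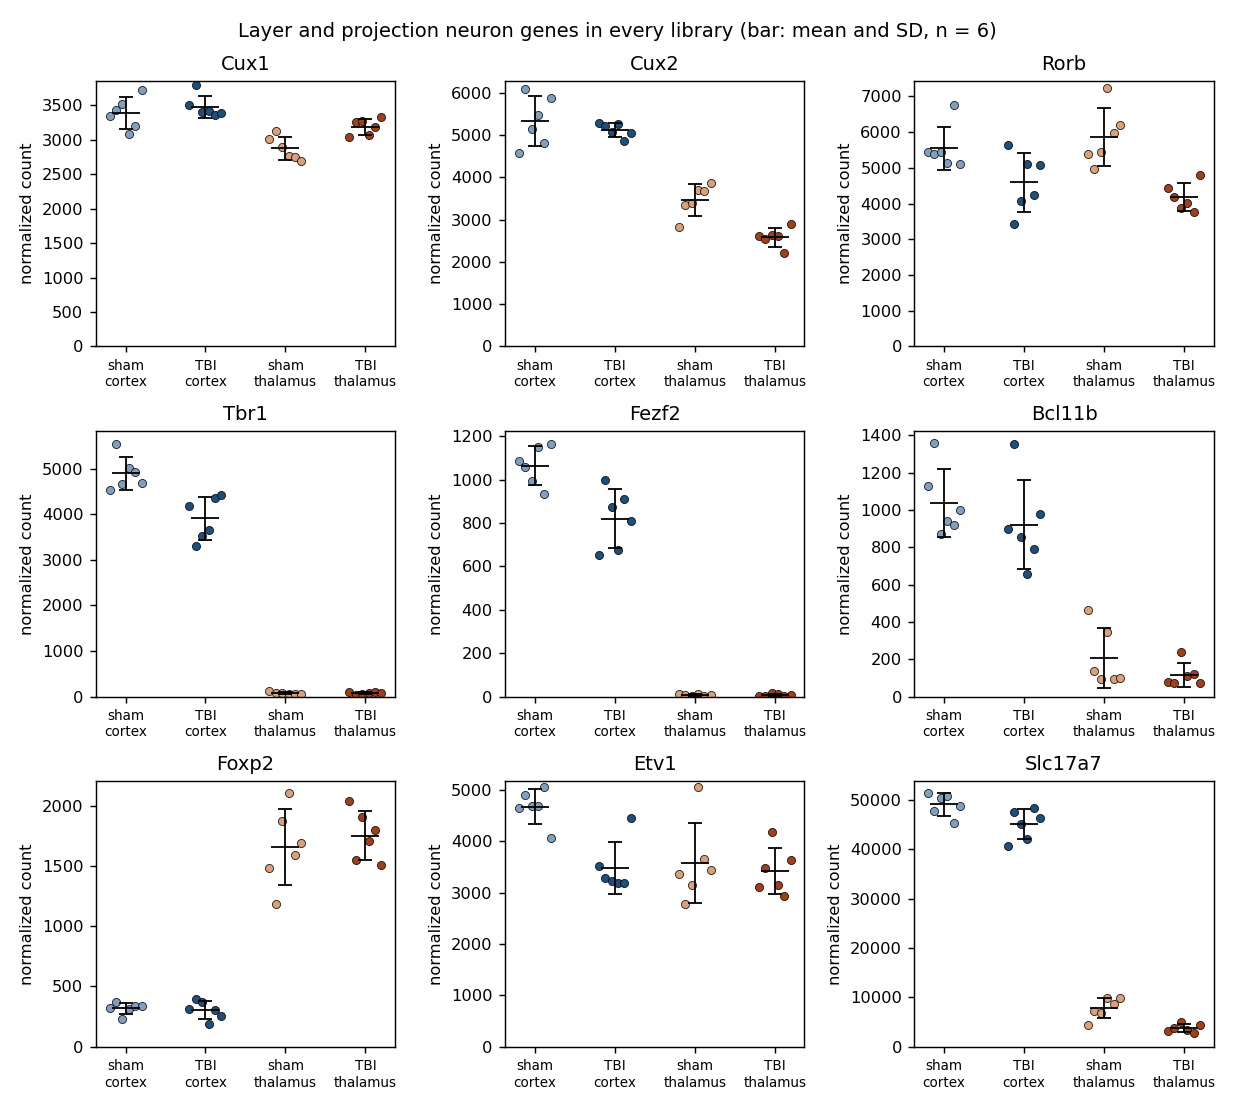
Normalized counts (vertical axes, starting at 0) of the 9 genes in each of the 24 libraries, by group. Points are libraries, and the bars show the mean and SD of 6 rats. Tbr1 and Fezf2 lie near 0 in thalamus, Foxp2 is higher in thalamus than in cortex, and 5 of 6 Slc17a7 values in TBI thalamus lie below all sham thalami.

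The regions were compared first, to see which members are cortical in this tissue. Among sham-operated rats, 7 of the 9 were lower in thalamus than in cortex, Foxp2 was higher, and Rorb did not differ beyond the spread of the libraries. By limma with Benjamini-Hochberg adjustment, 28.3% of 15582 loci tested were lower in sham thalamus and 33.9% were higher. Without any overlap of the 6 thalamic and 6 cortical libraries, 5 members were lower and 1 was higher, where 19.2% and 23.9% of loci were.

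Tbr1 and Fezf2 were close to absent from thalamus. Tbr1 had a lowest, median and highest value of 4540, 4805 and 5545 in sham cortex and of 55.7, 65.6 and 131 in sham thalamus (log2 difference -6.04, SE 0.171, adjusted p = 1.06e-13). Fezf2 had 933, 1072 and 1165 in sham cortex and 4.2, 8.24 and 10.5 in sham thalamus (log2 difference -6.99, SE 0.189, adjusted p = 6.44e-14). Its thalamic values rest on 4 to 11 fragments per library, so the size of this difference depends on the pseudocount of 1. In every sham rat the thalamus held 1.12% to 2.88% of the Tbr1 level of the cortex of the same rat, and 0.451% to 0.969% of its Fezf2 level.

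Slc17a7 and Bcl11b were lower in thalamus, but well above 0. Slc17a7 had 45390, 49635 and 51322 in sham cortex and 4464, 7950 and 9880 in sham thalamus (log2 difference -2.70, SE 0.15, adjusted p = 2.78e-10). Bcl11b had 871, 972 and 1357 in sham cortex and 93.5, 119 and 463 in sham thalamus (log2 difference -2.63, SE 0.352, adjusted p = 8.29e-06). The highest Bcl11b values among sham thalami, 463 in rat 26 and 347.5 in rat 38, came from the libraries with high striatal markers, and the other 4 lay between 93.5 and 139.1. Slc17a6, the thalamic counterpart of Slc17a7, went the other way, from 894, 1005 and 1278 in sham cortex to 23823, 26202 and 29859 in sham thalamus (log2 difference 4.68, SE 0.0795, adjusted p = 5.97e-16).

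Cux2, Cux1 and Etv1 differed less between regions, and Rorb did not differ detectably. Cux2 had 4587, 5314 and 6088 in sham cortex and 2835, 3534 and 3873 in sham thalamus (log2 difference -0.62, SE 0.0817, adjusted p = 6.91e-06), with no overlap. Cux1 had 3086, 3393 and 3724 in sham cortex and 2689, 2830 and 3131 in sham thalamus (log2 difference -0.24, SE 0.0533, adjusted p = 0.00116). Etv1 had 4057, 4691 and 5051 in sham cortex and 2777, 3398 and 5047 in sham thalamus (log2 difference -0.41, SE 0.108, adjusted p = 0.00369). For both, 1 thalamic library reached into the cortical range. Rorb had 5105, 5408 and 6757 in sham cortex and 4959, 5698 and 7240 in sham thalamus, and the interval of its log2 difference ran from -0.11 to 0.26. Foxp2 was the only member higher in thalamus, at 1188, 1641 and 2106 against 229, 328 and 370.5 in sham cortex (log2 difference 2.37, SE 0.131, adjusted p = 2.67e-10).

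Among TBI rats 6 members were lower in thalamus and Foxp2 was higher. All 7 were also without overlap. Of 15737 loci, 26.5% were lower and 31% higher in TBI thalamus, and 16.5% and 19.5% did not overlap in these directions. The member that was lower among sham rats and did not pass among TBI rats was Etv1, at 3183, 3250 and 4461 in TBI cortex and 2942, 3318 and 4187 in TBI thalamus (log2 difference -0.024, SE 0.097, adjusted p = 0.853). Cux1 passed in both, with -0.12 (SE 0.044, adjusted p = 0.0254) on the log2 scale among TBI rats, but not among them without thalamus of rat 22 (adjusted p = 0.06) or rat 52 (adjusted p = 0.0544). The order of the 4 group means was sham cortex, TBI cortex, sham thalamus, TBI thalamus for Cux2, Bcl11b and Slc17a7, with the neighbours TBI cortex and sham cortex not apart by the test for any of the 3, and TBI and sham thalamus not apart for Bcl11b. Tbr1 and Fezf2 had both cortical means above both thalamic ones, sham cortex highest, and Foxp2 both thalamic means above both cortical ones. Rorb ran from sham thalamus over sham cortex and TBI cortex to TBI thalamus, and Etv1 from sham cortex over sham thalamus and TBI cortex to TBI thalamus. No neighbours in the Rorb order were apart by the test. In the Etv1 order TBI cortex and TBI thalamus were not apart, and sham thalamus was not compared with TBI cortex.

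**Figure D2:**
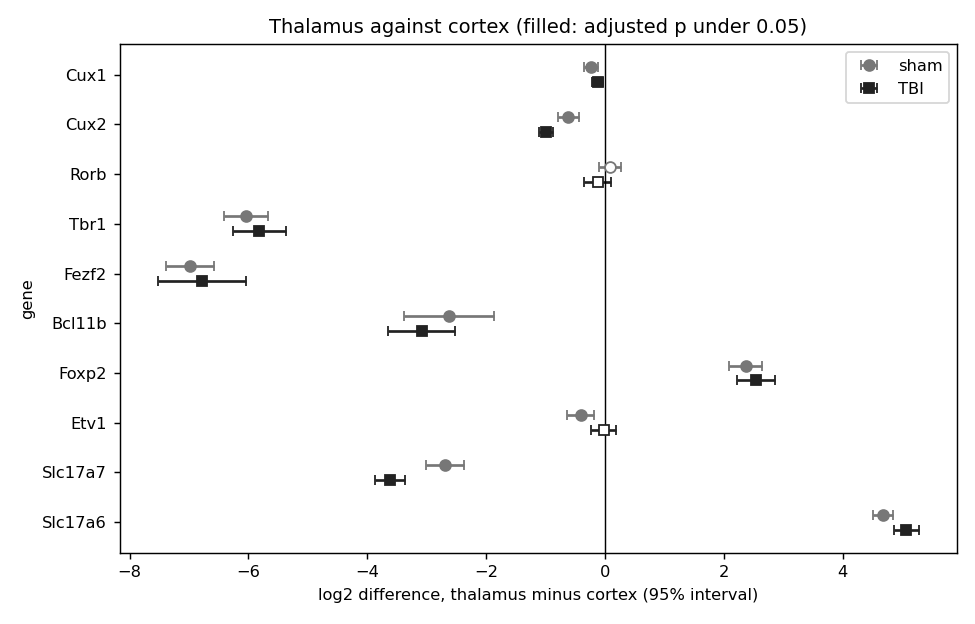
Log2 difference of thalamus minus cortex (horizontal axis, 95% interval) for the 9 genes and Slc17a6, among sham rats (grey circles) and TBI rats (black squares); filled symbols passed an adjusted p of 0.05. Tbr1 and Fezf2 lie below -5 and Slc17a6 above 4 in both, and the sham and TBI values lie farthest apart for Slc17a7, at -2.70 and -3.62.

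The next comparison asked which of these genes differ in the perilesional cortex 3 months after TBI. Tbr1, Fezf2 and Etv1 were lower in TBI cortex, with means 20.2%, 23.1% and 25.6% below those of sham cortex, and the means of 8 of the 9 members were lower. No member was higher. Of 15493 loci tested, 14.9% were lower and 14.3% higher in TBI cortex, against 3 and 0 of the 9 members. The median log2 difference of the members was -0.19, and that of all loci -0.0096. In tissue of mixed cells, fewer cells of a type and less RNA per cell cannot be told apart.

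Tbr1, the layer VI factor at chr3:54348652-54359495 in the coordinates of the deposited annotation, had 4540, 4805 and 5545 normalized counts as its lowest, median and highest in sham cortex and 3303, 3916 and 4419 in TBI cortex. Every TBI cortex lay below every sham cortex, as for 5.45% of loci, and Tbr1 was the only member of which this was true. Its mean fell from 4896 ± 363 (SD, n = 6) to 3906 ± 470.1 (SD, n = 6) (log2 difference -0.33, SE 0.0752, adjusted p = 0.00447). Foxp2, the other layer VI factor, had 229, 328 and 370.5 in sham cortex and 191, 309.8 and 398 in TBI cortex. Its groups overlapped, with 1 TBI library below and 2 above all sham libraries, and its interval was -0.42 to 0.26 (log2 difference -0.082, SE 0.16, adjusted p = 0.731).

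Of the layer V factors, Etv1 and Fezf2 fell and Bcl11b did not pass. Etv1 (chr6:68061143-68152592) had 4057, 4691 and 5051 in sham cortex and 3183, 3250 and 4461 in TBI cortex (log2 difference -0.43, SE 0.0795, adjusted p = 0.0011). In 5 of the 6 TBI rats it lay below all sham libraries, and the other one, rat 63 at 4461, lay among them. Fezf2 (chr15:16849843-16858715) had 933, 1072 and 1165 in sham cortex and 651, 839.9 and 997 in TBI cortex (log2 difference -0.39, SE 0.0994, adjusted p = 0.00881). Again 5 TBI libraries lay below all sham libraries, and the highest, rat 24 at 997.2, lay just above the second lowest sham value, 994.5.

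Bcl11b had 871, 972 and 1357 in sham cortex and 657, 875 and 1352 in TBI cortex (log2 difference -0.19, SE 0.145, adjusted p = 0.351). The highest TBI value was that of rat 24, whose summed striatal markers stood at 27891 where the other TBI cortices had 12090 to 14232. Without this library the Bcl11b difference was -0.31 (adjusted p = 0.0653), which is over 1.5 times the value with it, and still did not pass. Tbr1, Fezf2 and Etv1 passed without it, at -0.28, -0.45 and -0.42.

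Rorb, the layer IV factor, had 5105, 5408 and 6757 in sham cortex and 3435, 4664 and 5626 in TBI cortex. The TBI libraries of rats 24, 45 and 56 lay between 3435 and 4238 and those of rats 22, 52 and 63 between 5090 and 5626, and 5 of the 6 lay below all sham libraries, rat 52 by less than 1 normalized count (log2 difference -0.29, SE 0.106, adjusted p = 0.0541). Rorb passed when TBI rat 22 (adjusted p = 0.0224), rat 52 (adjusted p = 0.0474) or rat 63 (adjusted p = 0.0372) was left out.

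The upper layer genes and Slc17a7 did not pass the test in cortex. Cux2 had 4587, 5314 and 6088 in sham cortex and 4862, 5149 and 5289 in TBI cortex, the TBI values all within the sham range, with an interval of -0.19 to 0.086 (log2 difference -0.050, SE 0.0641, adjusted p = 0.59). Cux1 had 3086, 3393 and 3724 in sham cortex and 3367, 3411 and 3797 in TBI cortex, with 1 TBI library above all sham libraries and an interval of -0.068 to 0.15 (log2 difference 0.041, SE 0.0513, adjusted p = 0.584). Slc17a7 had 45390, 49635 and 51322 in sham cortex and 40756, 45768 and 48343 in TBI cortex, with 3 TBI libraries below all sham libraries (log2 difference -0.13, SE 0.0519, adjusted p = 0.0806). Slc17a6 fell in the same libraries, from 894, 1005 and 1278 to 491, 677 and 844, without overlap (log2 difference -0.60, SE 0.113, adjusted p = 0.00128). Whether Slc17a6 and Slc17a7 differed in their change was not tested.

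The calls for Tbr1 and Fezf2 depend on which libraries set the spread. In 1 fit over all 24 libraries, which lets the thalamic libraries with few fragments of these genes share in the spread, the adjusted p was 0.233 for Tbr1 and 0.342 for Fezf2, and Etv1 (adjusted p = 0.00459) and Rorb (adjusted p = 0.0394) were the members that passed. No member changed by 1.5-fold or more in cortex.

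In the thalamus, Slc17a7, Rorb and Cux2 were lower and Cux1 was higher after TBI. Of 15564 loci tested, 20.9% were lower and 14.5% higher, against 3 and 1 of the 8 members tested. Their median log2 difference was -0.26, and that of all loci -0.023. Fezf2 was not tested, since its mean lay under 10: it had 4.2, 8.24 and 10.5 in sham and 2.45, 6.38 and 18.3 in TBI thalamus, from 2 to 18 fragments per library.

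Slc17a7 (chr1:102226198-102238045) had 4464, 7950 and 9880 as its lowest, median and highest in sham thalamus and 2693, 3648 and 4970 in TBI thalamus. The TBI mean was 47.7% of the sham mean (log2 difference -1.05, SE 0.187, adjusted p = 0.000642), and of the 4 called members this was the only one that differed by 1.5-fold or more. Of the 6 TBI thalami, 5 lay below every sham thalamus, as the plot of all libraries shows, and the lowest sham value, 4464 in rat 26, was the one that overlapped. Slc17a6 in the same libraries had 23823, 26202 and 29859 in sham and 19974, 22357 and 24435 in TBI thalamus (log2 difference -0.21, SE 0.0659, adjusted p = 0.0226). It did not pass with TMM scaling (adjusted p = 0.0661), upper quartile scaling (adjusted p = 0.0913) or edgeR on the recovered fragments (adjusted p = 0.0743), nor in 1 fit over all 24 libraries (adjusted p = 0.0867), without the libraries high in choroid plexus markers (adjusted p = 0.11) or without sham rat 55 (adjusted p = 0.0512).

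Slc17a7 is also made by neurons next to the thalamus, so markers of neighbouring tissue were set beside it. The summed markers of hippocampal neurons were 5201 to 6018 in sham and 3609 to 4757 in TBI thalamus, and of the 4 of 7 that could be tested 2 were lower and 1 was higher. Markers of striatal neurons summed to 4771 to 14667 and 5030 to 7195, with 4 of 8 lower, and those of habenular neurons to 2057 to 7439 and 3703 to 10420, with 0 of 6 called by limma and 0 at an unadjusted p under 0.05. The sums of the hippocampal markers did not overlap between the groups, and those of the striatal and habenular markers did. The markers of glutamatergic forebrain neurons summed to 44247 to 54839 in sham and 33035 to 37137 in TBI thalamus, also without overlap, and of the 9 tested 3 were lower, Camk2a among them, and 1 was higher. Over all loci tested, 20.9% were lower and 14.5% higher in TBI thalamus. The log2 differences of the tested hippocampal genes ran from -1.24 to 0.66 (median -0.28). Those of the tested forebrain genes ran from -0.47 to 0.61 (median -0.071), so a sum need not stand for every gene of its list. The part of these cell types in the Slc17a7 difference was not tested. Without the sham thalami of rats 26 and 38 its log2 difference was -1.14 (adjusted p = 0.000294).

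Rorb (chr1:241354354-241696522) had 4959, 5698 and 7240 in sham thalamus and 3771, 4098 and 4796 in TBI thalamus. All TBI thalami lay below all sham thalami, as for 10.7% of loci, and Rorb was the only member of which this was true (log2 difference -0.48, SE 0.0851, adjusted p = 0.000596). Cux2 (chr12:41883517-42092106) had 2835, 3534 and 3873 in sham and 2203, 2615 and 2892 in TBI thalamus (log2 difference -0.42, SE 0.0772, adjusted p = 0.000785), and rat 63, at 2892, was the only TBI library above the lowest sham value. Cux1 (chr12:25151455-25470495) had 2689, 2830 and 3131 in sham and 3040, 3215 and 3333 in TBI thalamus, with 4 TBI libraries above all sham libraries (log2 difference 0.15, SE 0.047, adjusted p = 0.0209). The Cux1 call was lost without sham rat 50 (adjusted p = 0.0517), without sham rat 55 (adjusted p = 0.0558) and without the 3 libraries high in choroid plexus markers (adjusted p = 0.128).

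The remaining members did not pass. Bcl11b had 93.5, 119 and 463 in sham and 70.9, 95.5 and 241 in TBI thalamus (log2 difference -0.65, SE 0.421, adjusted p = 0.255). Without the sham thalami of rats 26 and 38, whose striatal markers were high, its difference was -0.0088 (adjusted p = 0.988). Without the 3 libraries high in choroid plexus markers, which kept rats 26 and 38 in, it was -1.28 (adjusted p = 0.0262). The size of the Bcl11b difference in thalamus depended on which of these libraries entered. The 3 other members had overlapping groups. Tbr1 had 55.7, 65.6 and 131 in sham and 37.9, 78.7 and 99.8 in TBI thalamus (interval of the log2 difference -0.68 to 0.47). Foxp2 had 1188, 1641 and 2106 in sham and 1507, 1749 and 2038 in TBI thalamus (interval -0.16 to 0.35). Etv1 had 2777, 3398 and 5047 in sham and 2942, 3318 and 4187 in TBI thalamus (interval -0.31 to 0.21).

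**Figure D3:**
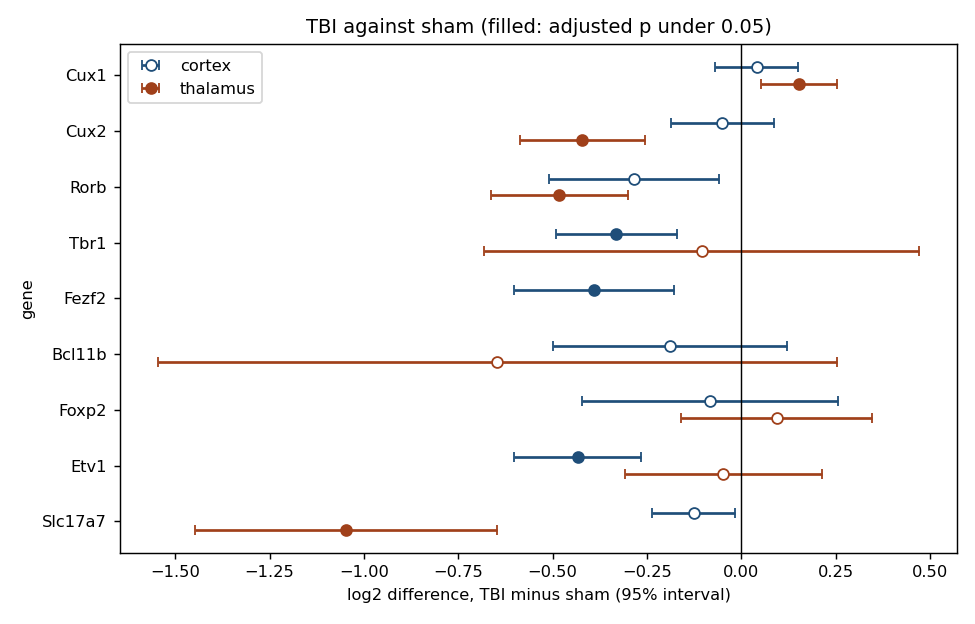
Log2 difference of TBI minus sham (horizontal axis, 95% interval) in cortex (blue) and thalamus (brown) for each gene; filled circles passed an adjusted p of 0.05. Tbr1, Fezf2 and Etv1 are filled in cortex, Cux1, Cux2, Rorb and Slc17a7 in thalamus, and Fezf2 has no thalamic value.

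No member was called in both regions, which alone does not show that the regions differ. The difference itself was tested as an interaction over the 24 libraries. It passed for Slc17a7, whose TBI effect in thalamus minus that in cortex was -0.92 (SE 0.207, adjusted p = 0.00732) on the log2 scale, and for Cux2, at -0.37 (SE 0.104, adjusted p = 0.0285). Of 15678 loci, 4.54% were lower and 2.72% higher in this sense, against 2 and 0 of the 9 members. The call for Slc17a7 was kept with the rat as a block (adjusted p = 0.00903). That for Cux2 was kept with the block too (adjusted p = 0.00904), but not by edgeR (adjusted p = 0.0529), nor without sham cortex of rat 26 (adjusted p = 0.0557) or rat 50 (adjusted p = 0.0566), sham thalamus of rat 50 (adjusted p = 0.0512) or rat 55 (adjusted p = 0.0581), or the libraries high in choroid plexus markers (adjusted p = 0.226).

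Etv1 fell in cortex, and in thalamus its groups overlapped, but the difference of 0.39 (SE 0.154, adjusted p = 0.132) did not pass. It did without sham thalamus of rat 38 (adjusted p = 0.021), which had the highest thalamic Etv1 value, 5047. That library is among those high in striatal markers, and without all of these the Etv1 difference also passed (adjusted p = 0.0449). Differences between regions for Tbr1 (interval -0.37 to 0.82) and Rorb (interval -0.50 to 0.10) were not detected. That for Fezf2 (interval -0.65 to 1.06) rests on 2 to 18 fragments per library in TBI thalamus, too few to decide it.

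General neuronal transcripts fell in the same libraries. Of 15 neuron markers, 10 were lower in TBI cortex and 13 in TBI thalamus and none was higher, with medians of -0.27 and -0.43. Their sum ranged from 477679 to 505811 in sham cortex, 353649 to 447128 in TBI cortex, 379844 to 453348 in sham thalamus and 258089 to 328852 in TBI thalamus. Of 14 microglia markers, 13 were higher in TBI cortex and 14 in TBI thalamus, with sums of 17261 to 18314 and 24489 to 27629 in cortex and 18429 to 23930 and 37371 to 48120 in thalamus. Of 9 astrocyte markers, 5 were higher in each region and 2 lower in cortex. Of 12 thalamic neuron markers, 7 were lower in TBI thalamus, and of the inhibitory neuron markers 3 of 8 tested were lower in TBI cortex and 5 of 7 in TBI thalamus. By limma 0 of 7 choroid plexus markers were called in either region, with 1 at an unadjusted p under 0.05 in cortex and 0 in thalamus, and 0 of 8 striatal markers in cortex, with 1 at an unadjusted p under 0.05. Over all loci tested, 14.9% were lower and 14.3% higher in TBI cortex, and 20.9% and 14.5% in TBI thalamus. None of the genes of the neuron, microglia and astrocyte lists was at 0 in every library of a group. The part of these changes in the members' differences was not tested.

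The differences were also set relative to the mean of the 15 neuron markers, a scale on which the median of all loci stood at 0.29 in cortex and 0.41 in thalamus. Of 15493 loci in cortex, 9857 were called higher and 141 lower on this scale, and of 15564 in thalamus 11401 and 262. On it the falls of Tbr1, Fezf2 and Etv1 in cortex were -0.033 (adjusted p = 0.674), -0.092 (adjusted p = 0.428) and -0.14 (adjusted p = 0.115), and none passed. Cux1, Cux2 and Slc17a7 were higher in cortex on this scale, at 0.34 (adjusted p = 0.001), 0.25 (adjusted p = 0.0118) and 0.17 (adjusted p = 0.0108). In thalamus the difference of Slc17a7 remained lower, at -0.62 (adjusted p = 0.0088), whereas those of Rorb and Cux2 came to -0.050 (adjusted p = 0.554) and 0.010 (adjusted p = 0.919). Cux1, Foxp2 and Etv1 were higher there, at 0.58 (adjusted p = 5.86e-05), 0.53 (adjusted p = 0.00122) and 0.38 (adjusted p = 0.0149). Less the median of all loci on this scale, Tbr1, Fezf2 and Etv1 in cortex stood at -0.32, -0.38 and -0.42, and Cux1, Cux2 and Slc17a7 at 0.050, -0.040 and -0.12. In thalamus Slc17a7, Rorb and Cux2 stood at -1.02, -0.46 and -0.40 in this sense, and Cux1, Foxp2 and Etv1 at 0.18, 0.12 and -0.025. These differences less the median were not tested.

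**Figure D4:**
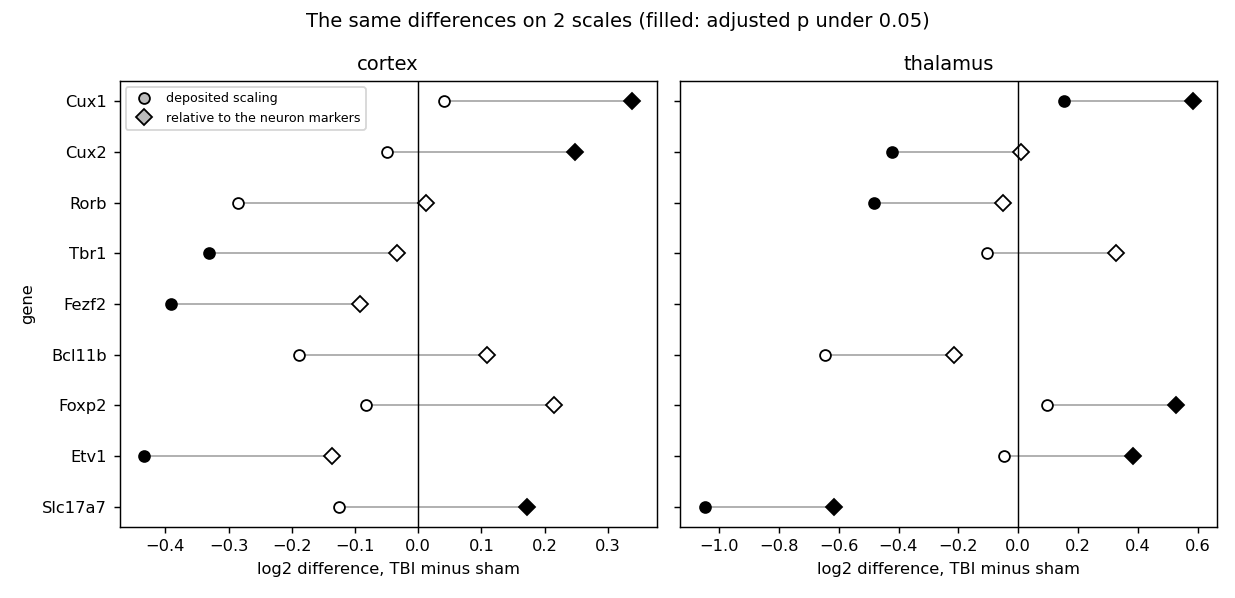
Log2 difference of TBI minus sham (horizontal axes) for each gene on the deposited scale (circles) and relative to the mean of 15 neuron markers (diamonds), in cortex and thalamus; filled symbols passed an adjusted p of 0.05. All members shift to the right on the second scale, and Slc17a7 in thalamus is the only one below 0 that is filled on both.

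Companion genes of each layer were read beside the members. Many are also expressed in thalamus, so their thalamic differences cannot be read as changes of cortical layers. Layer V genes summed to 24897 to 28067 in sham cortex and 54422 to 81291 in sham thalamus. Those of layer IV summed to 9905 to 12008 and 8611 to 14793. Upper layer genes summed to 35557 to 41163 and 12749 to 13881, and layer VI and subplate genes to 10551 to 12190 and 6797 to 7857. Among 10 layer V genes tested, 4 were lower and 0 higher in TBI cortex (median -0.23), and 3 were lower and 1 higher in TBI thalamus (median -0.15). Nefh, the heavy neurofilament chain, which is not confined to layer V, fell most in both, at -0.91 (SE 0.124, adjusted p = 0.000126) and -1.43 (SE 0.127, adjusted p = 2.05e-06), and Ldb2, a LIM domain binding protein, was higher in thalamus at 0.38 (SE 0.0808, adjusted p = 0.00216). Of 5 layer IV genes, 2 were lower and 1 higher in each region (medians -0.31 and -0.17). The potassium channel gene Kcnh5 had the largest fall, at -0.45 (SE 0.151, adjusted p = 0.0374) in cortex and -0.67 (SE 0.166, adjusted p = 0.00587) in thalamus. The sodium channel subunit Scnn1a was the one that rose, at 1.07 (SE 0.211, adjusted p = 0.00186) and 1.55 (SE 0.224, adjusted p = 0.000135).

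Of 12 upper layer genes, 2 were lower and 1 higher in TBI cortex (median -0.16), and 3 lower and 1 higher in TBI thalamus (median 0.022). In cortex the calcium-binding protein gene Calb1 had the largest fall at -0.25 (SE 0.0786, adjusted p = 0.0251) and Wfs1, which encodes an endoplasmic reticulum protein, the rise at 0.44 (SE 0.143, adjusted p = 0.0319). In thalamus the netrin receptor gene Unc5d fell, at -0.52 (SE 0.154, adjusted p = 0.0177) and the semaphorin receptor gene Plxnd1 rose, at 0.34 (SE 0.126, adjusted p = 0.0473). Of 11 layer VI and subplate genes, 2 were lower and 0 higher in cortex (median -0.092), led by the kainate receptor subunit Grik3 at -0.28 (SE 0.087, adjusted p = 0.0243), and 2 lower and 1 higher in thalamus (median 0.17), with the transcription factor Sox5 at -0.49 (SE 0.0737, adjusted p = 0.000179) and the kappa opioid receptor Oprk1 at 0.47 (SE 0.155, adjusted p = 0.0306).

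Of 10 glutamatergic forebrain neuron genes tested in cortex, 4 were lower and 0 higher (median -0.21), and the means of all 10 were lower. Nrn1, a secreted factor linked to plasticity, fell most at -0.58 (SE 0.064, adjusted p = 2.35e-05). In thalamus 9 could be tested, of which 3 were lower and 1 higher (median -0.071), with the kinase subunit Camk2a at -0.47 (SE 0.0571, adjusted p = 2.86e-05) and the transcription factor Bhlhe22 at 0.61 (SE 0.227, adjusted p = 0.0484). The share of lower genes in each list stands beside the background of 14.9% and 20.9% given above, and the lists hold 5 to 12 genes each.

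**Figure D5:**
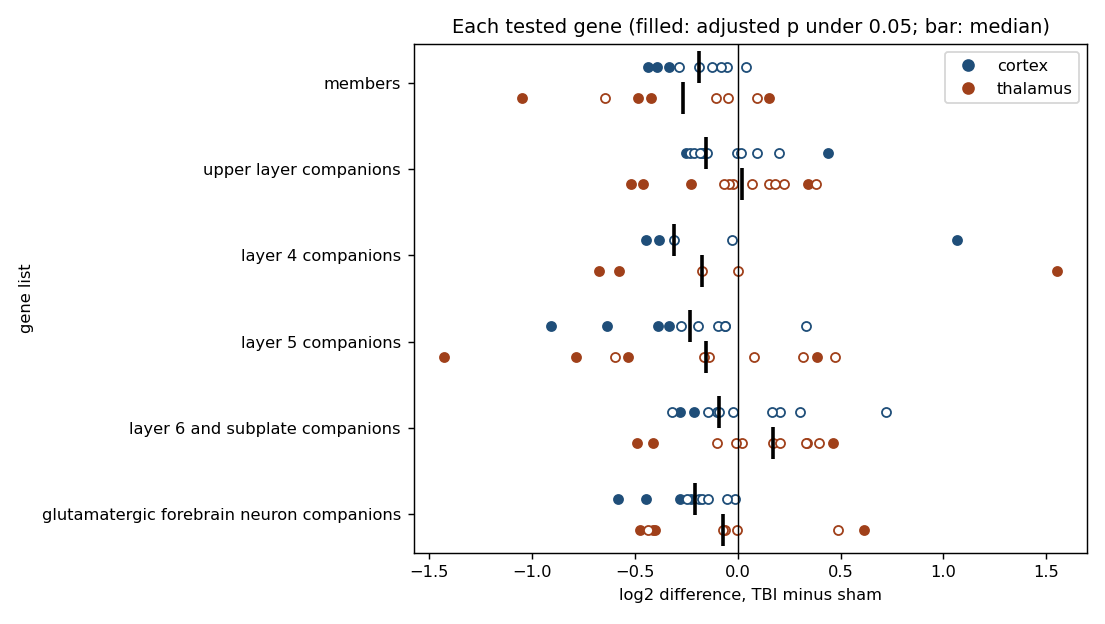
Log2 difference of TBI minus sham (horizontal axis) of every tested gene of the 9 members and of 5 companion lists, in cortex (blue) and thalamus (brown); filled circles passed an adjusted p of 0.05 and bars mark medians. All 6 medians lie below 0 in cortex, and the layer V list holds the lowest gene in each region, Nefh.

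Over the 12 cortical libraries the members were compared in pairs. The 36 pairwise Pearson correlations of log2 values ran from -0.48 (Cux1 with Rorb) to 0.91 (Fezf2 with Slc17a7), with a median of 0.22, and 25 of 36 were above 0. Tbr1 and Etv1 had 0.84, Rorb had 0.71 with Etv1 and 0.71 with Tbr1, and Bcl11b and Foxp2 had 0.70. These values describe libraries that share a TBI and a sham group, so a common difference between groups enters each of them, as does the size factor of each library.

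The named loci whose pattern over those libraries was most like each member were sought among 12683 with a mean of at least 100. For Etv1 they were Araf (0.98), Zfp385d (0.98) and Srpk2 (0.98), for Tbr1 Lurap1l (0.97), Lemd3 (0.96) and Snap91 (0.95), and for Fezf2 Klc1 (0.95), Smap2 (0.95) and Clstn3 (0.95), with Pearson r in parentheses. Rorb was most like Slc1a2 (0.97), Eya4 (0.96) and Fam63b (0.96), of which Slc1a2 encodes the main glial glutamate transporter. For Slc17a7 they were Tubb4b (0.95), Cox4i1 (0.94) and Btbd6 (0.94). The other members had lower values. Bcl11b was most like Crim1 (0.86), Cdh22 (0.85) and Rimbp2 (0.82), and Foxp2 most like Nptx2 (0.83), Glra2 (0.82) and Zfp672 (0.79). Cux1 was most like Slc25a34 (0.87), Gipr (0.86) and Iqce (0.85), and Cux2 most like Wnk2 (0.87), Susd2 (0.85) and Shank1 (0.85). All these loci are the best of 12683 over 12 libraries, so r can be high by this choice alone. The TBI and sham groups enter these values too, as in the pairs, and co-expression was not tested.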

How the data were processed

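Messenger RNA of 24 libraries was measured. The study made stranded libraries from polyadenylated RNA, pooled per region of each rat from a coronal slice, sequenced them on a NextSeq 500, aligned them with TopHat2 2.0.11 and Bowtie2 2.2.2, and assembled and quantified them with Cufflinks 2.2.1 and Cuffdiff, as the methods and the submitters' processing notes state. The labels name the build Rnor_5.0 and the methods an older rat genome with Rnor_5.0 annotation, so loci are given as in the deposited annotation. The deposited values are a signal, namely fragments per locus scaled by the authors with 1 size factor per library. Low values were whole multiples of 1 step per library within 0.1 fragment, which gave back the fragments.

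Groups came from the labels. limma 3.58.1 in R 4.3.3 (mean trend) compared groups after a log2 transform with a pseudocount of 1, keeping named loci whose mean was 10 or more, two-sided, with Benjamini-Hochberg adjustment over all loci and a threshold of 0.05. Fold changes on this scale understate those of low genes. Loci without a name, 37.1% of loci, were left out. The text names the 9 members, Slc17a6, per companion list and region the called genes with the largest rise and fall, and the loci most like each member. The members and lists were chosen with earlier results of these data known. edgeR 4.0.16, DESeq2 1.42.0 and fits without libraries high in striatal or choroid plexus markers were added after seeing the data. The fits were tested on simulated data. The rat numbers in the labels pair the cortex and thalamus of an animal. Departures from the group mean correlated within an animal (median r 0.187, from 0.00393 to 0.569, with 10 of 12 rats over 0.1). Between animals of a group the median r was -0.0332. Departures sum to 0 within a group, which pushes this value below 0, so it is no independent contrast. Counting error, where fragments are given, does not cover error between rats. Python 3.11.15, pandas 2.3.3 and matplotlib 3.10.9 made the tables and plots.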

Additional observations from a re-analysis of the deposited data

Results flagged for a closer look

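Single libraries lay far from the other 5 of their group in 4 of 36 sets of a gene and a group, where chance flags about 1 in 20 such sets (Dixon's 95% critical value for 6 samples). They were Cux1 in TBI cortex of rat 24 at 3797 normalized counts, Rorb in sham cortex of rat 50 at 6757, Bcl11b in TBI thalamus of rat 45 at 240.8 and Etv1 in TBI cortex of rat 63 at 4461. Rat 24 is the TBI cortex with high striatal markers, and the TBI thalamus of rat 45 had the highest summed choroid plexus markers, 262756, and striatal markers of 7195 where the other TBI thalami had at most 5786. The part of these values in the flagged levels was not tested. The TBI effect differed between regions for Cux2, at -0.37 on the log2 scale, and for Slc17a7, at -0.92 (thalamus minus cortex), by the interaction test.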

How the results depend on the processing

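The lower calls of Tbr1, Fezf2 and Etv1 in cortex and of Cux2, Rorb and Slc17a7 in thalamus were kept under TMM and upper quartile scaling, both other filters, both other pseudocounts, limma-voom, edgeR, DESeq2, an adjusted p under 0.01, and without any 1 library. Over the 49 differences tested for the members and Slc17a6, and all alternatives together, 1356 values kept direction and side of the threshold. Of those that kept direction, 36 others lost the call and 14 gained it. The 27 values that changed sign were counted apart, whether or not their call changed too. The rat as replicate block changed no call of a member, and the members lower for the difference between regions remained 2 in number. For Slc17a6 that difference did not pass in the main fit (0.39, adjusted p = 0.0782). It passed with the block (adjusted p = 0.0492), with DESeq2 and without TBI cortex of rat 63 (adjusted p = 0.0266).

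Relative to the neuron markers, the count of members was 3 higher and 0 lower in cortex, where 9857 and 141 of 15493 loci were. In thalamus it was 3 higher and 1 lower, where 11401 and 262 of 15564 loci were. For the difference between regions 1 member was lower, where 229 of 15678 loci were lower and 622 higher. For thalamus against cortex it was 2 higher and 6 lower among sham rats and 1 higher and 5 lower among TBI rats. This scale moves all loci up. Values that changed sign on it were, in cortex, Cux2 (0.25), Rorb (0.013), Bcl11b (0.11), Foxp2 (0.22) and Slc17a7 (0.17). In thalamus they were Cux2 (0.010), Tbr1 (0.33), Etv1 (0.38) and Slc17a6 (0.22), and for thalamus against cortex among TBI rats Cux1 (0.11), Rorb (0.12) and Etv1 (0.22). The calls of Tbr1, Fezf2 and Etv1 in cortex and of Cux2 and Rorb in thalamus were lost on this scale. That of Cux2 for the difference between regions was lost too (-0.24, adjusted p = 0.235). Cux1 lost its call for thalamus against cortex among sham rats (-0.13, adjusted p = 0.123) and TBI rats (adjusted p = 0.249). Rorb among sham rats became a call (0.18, adjusted p = 0.0423), as did Slc17a6 for the difference between regions (0.53, adjusted p = 0.00947).

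A change of at least 1.5-fold left 0 members lower in cortex, and 0 higher and 1 lower in thalamus. An adjusted p under 0.01 left 0 higher in thalamus and 1 lower for the difference between regions, as edgeR did for the latter. Etv1 in thalamus came to 0.0013 with TMM and 0.013 with upper quartile scaling, and the cause was not tested. Without libraries high in choroid plexus markers, 0 members were higher in thalamus and 1 was lower for the difference between regions, and that of Fezf2 was -0.33. Without those high in striatal markers, 1 member (Etv1) was higher for the difference between regions, that of Bcl11b was 0.30, and Tbr1 and Etv1 in thalamus were 0.0075 and 0.067.

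Leaving out 1 library at a time gave 0 to 1 members higher in thalamus, and 0 to 1 higher and 1 to 2 lower for the difference between regions. It let these uncalled values cross 0: Foxp2 in cortex (-0.17 to 0.044), Tbr1 and Etv1 in thalamus (-0.22 to 0.061 and -0.12 to 0.057), Fezf2 in the difference between regions (-0.073 to 0.42) and Etv1 for thalamus against cortex among TBI rats (-0.084 to 0.050). Among all loci called, the share that was lower was 50.9% in cortex and 59.0% in thalamus, but 39.4% and 42.1% with upper quartile scaling, and 45.7% in thalamus with TMM. Calls over all loci came to 2223 higher and 2308 lower in cortex, against 1337 and 1099 at an adjusted p under 0.01, 902 and 106 with a change of at least 1.5-fold, and 1223 and 939 without libraries high in choroid plexus markers. In thalamus they came to 2259 and 3257, against 1405 and 2024, 907 and 423, and 1859 and 2382. Choosing among several loci of a gene gave no value, since each member has 1. Depth limits Fezf2 in thalamus, at 2 to 18 fragments per library.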
